A study of Mus musculus with 16 samples.

Results

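The 31 genes described here are transcripts enriched in astrocytes, and were read from the RNA sequencing of brain tissue of 18-month-old male C57BL/6J mice by their symbols. All 31 were found among the 40481 genes listed, and all 31 were among the 14949 genes tested, those above 1 CPM, the count scaled to a common library total, in at least 7 of the 16 mice. The question was whether adropin(34-76), the putative secreted domain of the peptide encoded by Enho, alters the brain transcriptome, and whether astrocyte transcripts vary with the mouse's own Enho level. Mice in both groups were weight matched, were injected ip. once a day and were behaviorally tested after 2 weeks of injections. Injections continued during the testing, so treatment had lasted longer than 2 weeks when tissue was collected. The mice were fasted for 6 h before tissue collection. In the adropin group, 90 nmol/kg/d of the synthetic peptide was given in saline with BSA, and the saline group received this diluent alone. Each group had 15 mice, and 8 of each were sequenced. The dissection of the brain tissue was not described, and a bulk sample cannot tell fewer astrocytes from less RNA per astrocyte.

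Astrocytes clear glutamate and potassium from synapses, convert glutamate to glutamine, couple to one another through gap junctions and enclose vessels with water-permeable endfeet. When they become reactive, they enlarge their cytoskeleton of intermediate filaments. The 31 genes comprise 2 intermediate filaments, 2 transcription regulators, 4 genes of glutamate uptake and glutamine synthesis, 6 of water, ion and amino acid transport, 3 of gap and tight junctions, 4 metabolic enzymes and regulators, 4 surface receptors, 3 secreted or calcium-binding proteins, 2 metallothioneins and Ranbp3l, whose role in astrocytes is not well known.

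Total counts ranged from 35026503 to 70314050 per mouse. Saline mice 8_3 and 5_4 had the highest Enho levels (73.5 and 64.2 CPM), though saline mouse 2_3 was close to the latter at 61.2 CPM. They also had the highest share of counts from mitochondrial genes (9.54% and 9.27%). The next mouse, adropin mouse 4_3, had 7.42% and the lowest mouse 4.02%. Mouse 8_3 also had the highest level of Ttr, the transthyretin gene of the choroid plexus, at 2398 CPM against 311 CPM in the next saline mouse, and of Car8, a gene of cerebellar Purkinje cells, at 91.7 CPM against 6.95 CPM. For the score and the members that followed Enho, relations with Enho are also given without both mice. Genes named from other lists are also given without mouse 8_3.

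All 31 astrocyte genes were detected in every mouse. Compared per kilobase of exon, since counts grow with transcript length, Sparcl1, which encodes a secreted synaptogenic matrix protein, was the most abundant member at a mean of 538 CPM per kb over 16 mice. It was followed by Glul (glutamine synthetase, 412), Mt3 (a brain metallothionein, 296), Mt2 (203), Ndrg2 (199.6), Slc1a2 (173) and Atp1b2 (145). Ranges over the mice overlapped between each of these neighbors in the order. The lowest were Slc4a4 (8.10), Slc7a10 (7.85) and Ranbp3l (0.569 CPM per kb), and only Ranbp3l did not overlap any other member. Spread between mice differed widely among the members. Ttyh1, a chloride channel family gene, varied 1.09-fold from the lowest to the highest mouse, whereas Vim varied 2.72-fold and S100b 2.55-fold.

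No astrocyte gene differed between adropin and saline mice beyond the spread between mice. Of the 31, 12 had a higher and 19 (61.3%) a lower fitted level in the adropin group, with a median log2 fold change of −0.02, against 50.8% lower and a median of −0.0019 over all genes tested. The number lower was 14 with the first digit of the mouse labels as a block, and 14 to 22 without 1 mouse at a time. None passed the cut-off of a fold change above 1.5 with an unadjusted p below 0.05 (edgeR quasi-likelihood test), which 0.421% of all genes passed. The edgeR adjusted p ranged from 0.874 to 0.993. At an unadjusted p below 0.05, 1 member (Cldn10) was lower and none was higher, where 2.13% of all genes tested were lower and 1.86% higher. For 30 of 31 members the 95% interval of the fold change lay inside 1.5-fold in either direction, the exception being S100b, and for 24 it lay inside 1.25-fold. The adropin and saline values overlapped for every member, as they did for nearly all genes tested (0.00669% did not overlap).

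**Figure D1:**
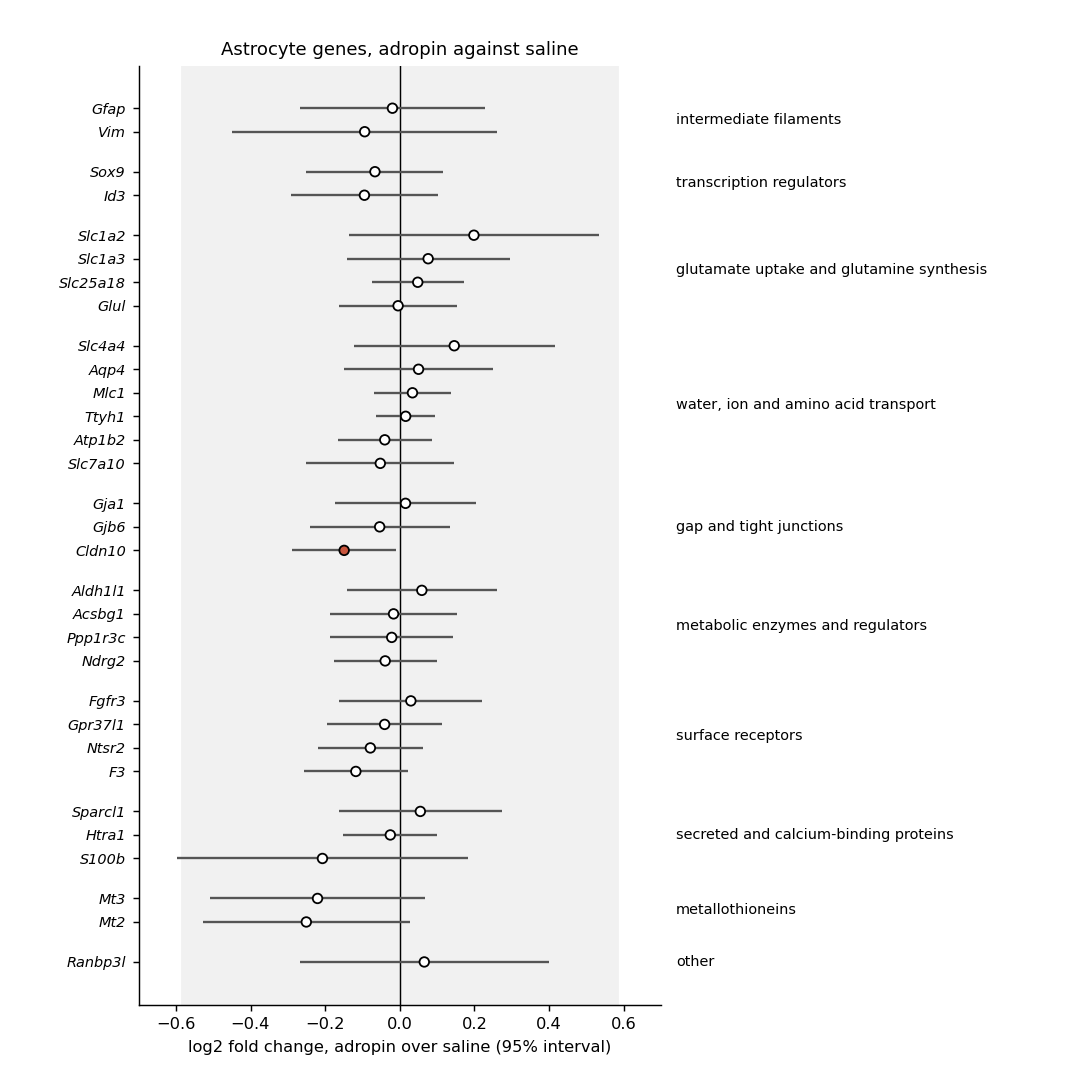
The x axis gives the log2 fold change of adropin over saline for each of the 31 astrocyte genes, grouped by role, with the point as the edgeR estimate and the line as its 95% interval (8 mice a group). The shaded band marks fold changes under 1.5 in either direction; Cldn10, filled, is the 1 gene with an unadjusted p below 0.05, and the S100b interval is the 1 that leaves the band.

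The intermediate filament genes mark reactive astrocytes. Gfap, the classical astrocyte filament, had values of 168, 188 and 313 CPM (lowest, median and highest) in the 8 adropin mice and of 177, 207 and 261 CPM in the 8 saline mice. The highest and the lowest Gfap level were both in adropin mice: 7_4 lay above and 2_1 below every saline mouse, and the other 6 adropin mice lay within the saline range. The log2 fold change was −0.02 ± 0.12 (SE; 95% interval −0.27 to 0.23, edgeR adjusted p = 0.978). Vim, which encodes vimentin, ranged from 34.9 to 70.1 CPM with adropin and from 38.1 to 94.9 CPM with saline, the highest being mouse 8_3. Its log2 fold change was −0.09 ± 0.17 (SE; edgeR adjusted p = 0.907), and turned to 0.08 without that mouse (edgeR adjusted p = 0.994).

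Glutamate uptake is a defining task of astrocytes. Slc1a2, which encodes the main glutamate transporter GLT-1, had values of 1511, 2545 and 2905 CPM (lowest, median and highest) with adropin and of 1297, 2119 and 2816 CPM with saline. Of the adropin mice, 2 lay below the saline median, and mouse 5_4 was the lowest of all. The log2 fold change of 0.20 ± 0.16 (SE; 95% interval −0.14 to 0.53) was the largest positive one among the members and did not pass the test (edgeR adjusted p = 0.874). Slc1a3, the transporter GLAST, had a log2 fold change of 0.08, the mitochondrial glutamate carrier Slc25a18 of 0.05 and Glul of −0.0044, each with an interval that spanned 0.

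Of the 6 genes of water, ion and amino acid transport, Aqp4, the water channel of the endfeet, had values of 64.0, 75.0 and 80.6 CPM with adropin and of 53.0, 69.6 and 95.4 CPM with saline, so the adropin mice all lay within the saline range. Its log2 fold change was 0.05 ± 0.10 (SE; edgeR adjusted p = 0.911). The bicarbonate cotransporter Slc4a4 had the widest interval in this set (log2 fold change 0.15, 95% interval −0.12 to 0.41). For Mlc1, an endfoot membrane protein, Ttyh1, Atp1b2, a sodium pump subunit, and Slc7a10, a small amino acid exchanger, the estimates lay between −0.05 and 0.03. The exons of Slc7a10 share 17.9% of their bases with Lrp3 on the opposite strand, and the strand setting of the counting was not given.

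The junction genes included the 1 member with an unadjusted p below 0.05. Cldn10, a claudin, had values of 17.4, 20.9 and 24.3 CPM (lowest, median and highest) with adropin and of 20.4, 23.1 and 25.4 CPM with saline. Of the adropin mice, 7 of 8 lay below the saline median, but the ranges overlapped over most of their width. The log2 fold change was −0.15 ± 0.07 (SE; 95% interval −0.29 to −0.01, p = 0.0378 and adjusted p = 0.874 by edgeR; two-sided exact permutation p = 0.0309, not adjusted). Leaving out 1 mouse at a time kept the edgeR p below 0.05 in 8 of 16 fits, with estimates from −0.18 to −0.11 over the 16. It did not without adropin mouse 1_3, 2_1, 2_4 or 4_1 or saline mouse 2_3, 5_4, 6_2 or 8_3, the last of which had the highest level. When the first label digit entered the fit as a block, the Cldn10 estimate was −0.06 on the log2 scale, no longer past this threshold (edgeR adjusted p = 0.955). With the second digit as the block it was −0.20 and past it (edgeR adjusted p = 0.897), as it was in 8 of the 9 alternative fits to all mice. The gap junction genes Gja1 (connexin 43) and Gjb6 (connexin 30) had log2 fold changes of 0.02 and −0.05.

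The metallothioneins bind zinc and copper, Mt2 in most tissues and Mt3 mainly in the brain. They had the lowest fold changes of the 31 genes. Mt2 had values of 85.2, 102 and 147 CPM with adropin and of 97.4, 122 and 168 CPM with saline, and Mt3 had values of 239.97, 275 and 389 CPM with adropin and of 265, 309.8 and 514 CPM with saline. In both genes 5 of 8 adropin mice lay below the saline median. The log2 fold changes were −0.25 ± 0.13 (SE; 95% interval −0.53 to 0.03) for Mt2 and −0.22 ± 0.14 (SE; −0.51 to 0.07) for Mt3, both with an edgeR adjusted p of 0.874. Without adropin mouse 4_3, the adropin mouse with the highest value of both genes, both had an unadjusted p below 0.05. Mt2 alone also had one without saline mouse 5_3, without saline mouse 6_1 and with the second label digit as a block. The smallest adjusted p of either gene in any alternative fit was 0.515. Exons of Mt2 share 73.5% of their bases with Gm45774 on the opposite strand, so part of its count could belong to that gene.

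Both metallothionein genes lie on chromosome 8 on the plus strand of GRCm38, Mt3 at chr8:94152607-94154146 and Mt2 at chr8:94172664-94173568. Mt2 and Mt3 moved together from mouse to mouse (r = 0.855 over 16 mice, group means subtracted). S100b moved at least as closely with them (r = 0.910 with Mt3 and 0.876 with Mt2), and the cause was not tested. Their promoter windows, of Mt2 and Mt3, are shown for matches to the metal response element. This is the site of the metal-responsive factor MTF1, of which Mt2 is a classical target. Capitals mark each match to the core of the metal response element, TGCNCNC, on either strand, in RefSeq windows of 300 bases, from 250 before the start to 50 after it. They are at chr8:94172368-94172667 for Mt2 and chr8:94152357-94152656 for Mt3.
Mt2 promoter: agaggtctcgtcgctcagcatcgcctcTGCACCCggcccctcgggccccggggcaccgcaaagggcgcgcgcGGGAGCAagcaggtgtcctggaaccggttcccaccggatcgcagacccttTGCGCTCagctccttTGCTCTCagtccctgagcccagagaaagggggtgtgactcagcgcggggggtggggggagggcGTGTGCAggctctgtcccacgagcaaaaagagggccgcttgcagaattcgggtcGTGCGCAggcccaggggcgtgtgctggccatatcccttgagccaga
Mt3 promoter: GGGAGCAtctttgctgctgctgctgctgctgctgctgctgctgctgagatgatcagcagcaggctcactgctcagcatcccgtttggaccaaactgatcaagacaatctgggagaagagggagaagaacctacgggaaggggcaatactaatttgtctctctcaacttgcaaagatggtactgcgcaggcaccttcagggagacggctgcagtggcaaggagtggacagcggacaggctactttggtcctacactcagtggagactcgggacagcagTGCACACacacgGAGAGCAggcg
The core occurred 6 times in the Mt2 window and 3 times in the Mt3 window. It was found in 51.0% of all 32851 promoter windows in the table and in 15 of the 27 members that the table holds, so its presence alone sets no member apart. A window was not given for Aqp4, Sox9, Atp1b2 and Sparcl1. A match is a match of letters, and binding was not measured.

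S100b, which encodes a secreted calcium-binding protein, had the least certain estimate. The values were 108, 128 and 199.7 CPM (lowest, median and highest) with adropin and 123, 132 and 276 CPM with saline, with mouse 8_3 the highest. The log2 fold change was −0.21 ± 0.19 (SE; 95% interval −0.60 to 0.18, edgeR adjusted p = 0.874), and without 1 mouse at a time it ranged from −0.29 to −0.06. The other secreted products, Sparcl1 and the matrix protease Htra1, had log2 fold changes of 0.05 and −0.03. Among the surface receptors, the fibroblast growth factor receptor Fgfr3 (0.03), the orphan receptor Gpr37l1 (−0.04), the neurotensin receptor Ntsr2 (−0.08) and F3, or tissue factor (−0.12), had intervals that included 0. The same held for the transcription regulators Sox9 (−0.07) and Id3 (−0.09), and for the metabolic genes Aldh1l1, a folate enzyme used as a pan-astrocyte marker (0.06), the acyl-CoA synthetase Acsbg1 (−0.02), the glycogen-targeting subunit Ppp1r3c (−0.02) and Ndrg2 (−0.04).

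Averaged into a score, the mean over 31 genes of each gene's z-score of log2 CPM, the members had a level of −0.0517 ± 0.411 (SD, n = 8) in adropin and 0.0517 ± 0.584 (SD, n = 8) in saline mice. The difference of −0.103 is smaller than the SD of either group. Single mice ranged from −1.01 in saline mouse 5_4 to 0.990 in saline mouse 2_3, and the difference was −0.276 without the former and 0.0285 without the latter. It also moved by more than 1.5 times without adropin mouse 3_3 (−0.00407), 4_3 (−0.0526) or 7_4 (−0.199) or saline mouse 8_3 (−0.0437). Adropin mice lay between −0.718 and 0.558, within the saline range.

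Other astrocyte lists were read in the same way, to see whether the result depended on the choice of members. Of 40 other astrocyte-enriched genes, 21 were higher and 19 lower, with a median log2 fold change of 0.01, and 3 were lower at an unadjusted p below 0.05 by edgeR: Gli1, a target of sonic hedgehog signaling (−0.36), Agt, the angiotensinogen gene (−0.48), and Gstm1, a glutathione transferase (−0.14). Their edgeR adjusted p was 0.874 each, and without mouse 8_3 none of the 3 had a p below 0.05 (adjusted p 0.994 each by edgeR). The score of these 40 genes followed that of the members closely from mouse to mouse (r = 0.934). Of the 40, 6 rose and 8 fell with Enho (adjusted permutation p below 0.05), against 7 and 3 of the 31 members. Over all genes 15% rose and 17.7% fell. At an unadjusted edgeR p below 0.05, 1.86% of all genes were higher in adropin and 2.13% lower. Of 7 measurable pan-reactive genes (4 higher, 3 lower), Osmr, the oncostatin M receptor, was higher at this p (log2 fold change 0.30, edgeR adjusted p = 0.874). Of 12 genes of the neurotoxic-type reactive state (4 higher, 8 lower), Amigo2 was lower at it (−0.39, edgeR adjusted p = 0.874). Of 8 measurable trophic-type genes (3 higher, 5 lower) none had a p below 0.05. Without mouse 8_3, Osmr and Amigo2 remained below 0.05 (0.29 and −0.42), and Fkbp5 of the neurotoxic-type genes (−0.13) and Cd14 of the trophic-type genes (0.44) were below it as well, with an edgeR adjusted p of 0.994 each. In that fit, 414 of all 14949 genes had an unadjusted p below 0.05 in either direction. Lcn2, Steap4, Timp1 and Cxcl10 of the pan-reactive list were below the filter. Gdf10 and Hopx, both known from cerebellar Bergmann glia, were lower (−0.61 and −0.35, edgeR adjusted p = 0.874 each), and mouse 8_3 had the highest saline value of both (31.03 CPM of Gdf10 against 10.2 CPM in the next saline mouse). Without it the log2 fold changes were −0.18 and −0.23 (edgeR adjusted p = 0.994 each), neither at an unadjusted p below 0.05.

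From mouse to mouse the astrocyte genes did not all vary together. Relative to the group means, the 465 pairs of members had a median Pearson r of 0.324 over 16 mice. In 166 pairs r exceeded 0.5 and in 41 pairs it was below −0.5. The closest pairs were Gpr37l1 with Acsbg1 (r = 0.936), Slc1a3 with Gja1 (0.932), Glul with Sparcl1 (0.919) and S100b with Mt3 (0.910), and the most opposed was S100b with Fgfr3 (−0.861). The first axis of the members carried 47.0% of their variance. These values describe 16 libraries that differ in depth and mitochondrial share, and carry no test.

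**Figure D2:**
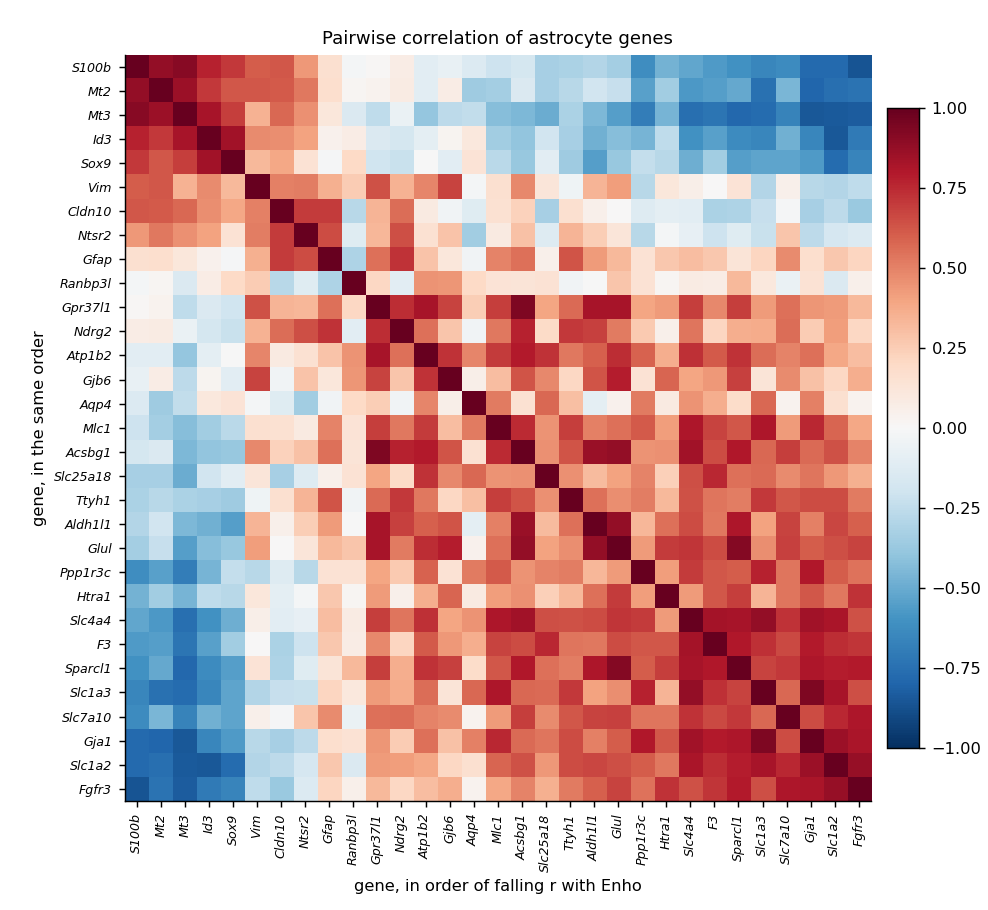
Pearson r between each pair of the 31 astrocyte genes over 16 mice, group means subtracted, on a color scale from −1 to 1, with genes in order of falling r with Enho on both axes. A block at the top left (S100b, Mt2, Mt3, Id3, Sox9) is positive within itself and negative against the genes at the bottom right (Gja1, Slc1a2, Fgfr3).

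The question with Enho, the adropin gene, was whether astrocyte transcripts vary with it. Enho had values of 44.1, 49.1 and 61.0 CPM (lowest, median and highest) with adropin and of 47.3, 50.3 and 73.5 CPM with saline (log2 fold change −0.10 ± 0.10 SE, edgeR adjusted p = 0.877). The astrocyte score had a Pearson r of −0.00599 with Enho (Spearman rho 0.0765) over 16 mice with group means subtracted, −0.307 within the adropin mice and 0.138 within the saline mice. Without 5_4 and 8_3, the mice farthest from the median of Enho, r was 0.146. The mean combines genes that followed Enho in opposite directions. With the first principal component of all genes tested subtracted as well, an alternative chosen after seeing the data, r was 0.856; the cause of this shift was not tested.

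**Figure D3:**
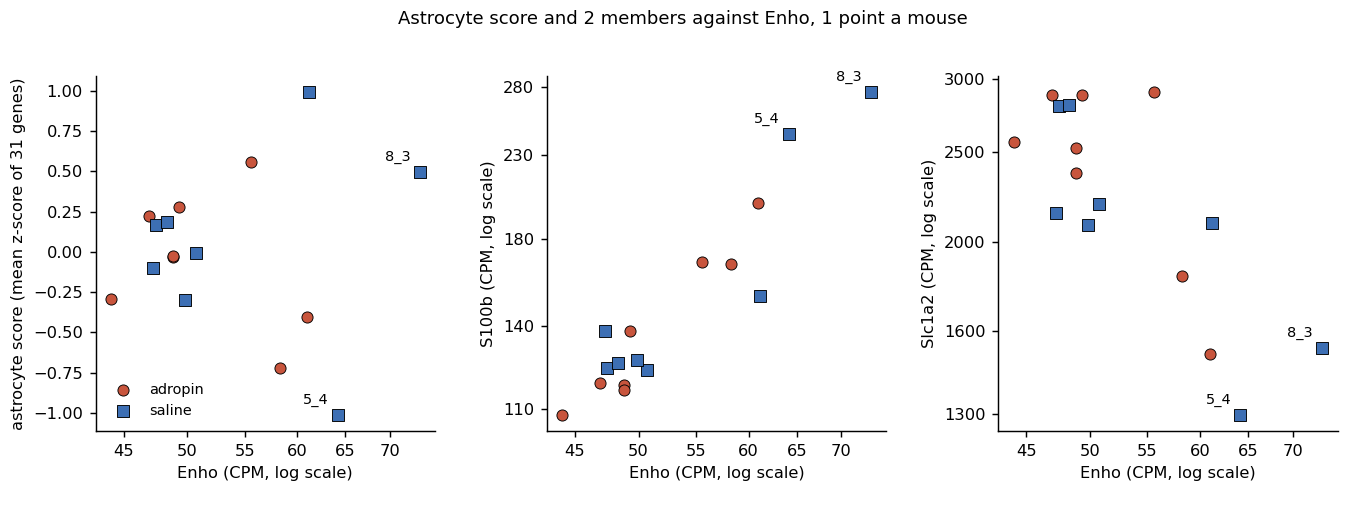
Each point is 1 mouse (circles adropin, squares saline), with the Enho level in CPM on a log x axis and, on the y axes, the astrocyte score (left), S100b in CPM (middle, log scale) and Slc1a2 in CPM (right, log scale). The score shows no line with Enho, S100b rises and Slc1a2 falls with it, and mice 5_4 and 8_3 sit at the far right.

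Of the 31 members, 7 (22.6%) rose with Enho at an adjusted permutation p below 0.05 over all genes, where 15% of all 14948 genes did, and 3 (9.68%) fell, where 17.7% of all genes did. The members with an absolute r above 0.7 were 22.6%, against 22.2% of all genes. By rank correlation 6 members rose and none fell, and 1763 and 1398 of all genes did. Without mice 5_4 and 8_3, 4 members (S100b, Mt2, Mt3 and Id3) rose and none fell, with 710 and 564 of all genes.

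S100b followed Enho most closely, with r = 0.936 (rho = 0.856, adjusted permutation p = 0.00235 and, by rank, 0.00733). Its r was 0.965 within the adropin mice, 0.923 within the saline mice and 0.880 without 5_4 and 8_3. The 3 adropin mice with the highest Enho (4_3, 3_3 and 7_4, at 61.0, 58.3 and 55.6 CPM) were also the 3 highest for S100b, at 199.7, 168 and 169 CPM. S100b lies at chr10:76253853-76261159 on the plus strand (GRCm38), and its window, chr10:76253586-76253885, is shown as that of the member nearest to Enho in pattern. Capitals mark its 1 match to the NFI core, TTGGCA, on either strand, the only motif searched that this window held. The metal response element core and STAT, SOX, AP-1 and cyclic AMP response sites were also searched. The NFI core was in 14.1% of all windows and, of the 27 members, only in that of S100b, and binding was not measured.
S100b promoter: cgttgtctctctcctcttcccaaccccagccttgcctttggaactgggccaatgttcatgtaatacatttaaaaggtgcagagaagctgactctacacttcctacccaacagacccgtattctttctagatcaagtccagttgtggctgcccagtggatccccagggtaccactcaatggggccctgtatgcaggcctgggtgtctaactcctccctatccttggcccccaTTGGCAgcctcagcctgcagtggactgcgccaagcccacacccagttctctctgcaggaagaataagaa

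Mt2 (r = 0.874, adjusted permutation p = 0.00273), Mt3 (0.825, 0.00562), Id3 (0.778, 0.00903) and Sox9 (0.749, 0.00679) also rose with Enho. Mice 4_3, 5_4 and 8_3 were the 3 highest for Id3, for Sox9 and for Mt3, and 5_4, 8_3 and 2_3 for Mt2. In both groups taken alone, r was at least 0.755 for Id3, 0.791 for Mt3 and 0.874 for Mt2, and 0.623 for Sox9. Sox9 is the factor that specifies the glial lineage and Id3 an inhibitor of basic helix-loop-helix factors. Vim (0.639, adjusted permutation p = 0.0422) and Cldn10 (0.611, 0.0272) passed as well, but Vim passed in 7 of 16 fits that left out 1 mouse (without 1_3, 2_1, 3_3, 4_1, 5_4, 5_5 or 6_2), and its r was 0.205 within the adropin mice. Cldn10 did not pass without 2_1 or 8_3, nor Id3 without 4_3, and S100b, Mt2, Mt3 and Sox9 passed in all 16 such fits. With 5_4 and 8_3 both left out, r was 0.828 for Mt2, 0.814 for Mt3 and 0.678 for Id3, which passed. It was 0.666 for Sox9, 0.600 for Cldn10 and 0.407 for Vim, which did not (adjusted permutation p of 0.0838, 0.141 and 0.371).

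Fgfr3 (r = −0.811, adjusted permutation p = 0.00670), Slc1a2 (−0.766, 0.00900) and Gja1 (−0.640, 0.0397) fell with Enho. Saline mouse 5_4 had 1297 CPM of Slc1a2 and 8_3 had 1534 CPM, and adropin mice 4_3 and 3_3 had 1511 and 1834 CPM, all below the other 12 mice. Fgfr3 was between 87.5 and 94.5 CPM in the same 4 mice and between 111 and 126 CPM in the others. Without 5_4 and 8_3, r was −0.644 for Fgfr3, −0.643 for Slc1a2 and −0.456 for Gja1, and none passed (adjusted permutation p of 0.101, 0.105 and 0.307). Gja1 passed in 6 of 16 fits that left out 1 mouse (without 2_1, 2_3, 5_5, 6_2, 7_4 or 8_1), and Fgfr3 and Slc1a2 in all 16.

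The other 21 members, among them Gfap (r = 0.217), Aqp4 (0.0187), Gjb6 (0.0228), Atp1b2 (0.0903), Aldh1l1 (−0.270), Glul (−0.277) and Slc1a3 (−0.523), did not pass. Gfap and Aqp4, often used as a measure of astrocytes, had adjusted permutation p-values of 0.5264 and 0.972, while S100b, used for the same purpose, had the highest r of the 31.

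**Figure D4:**
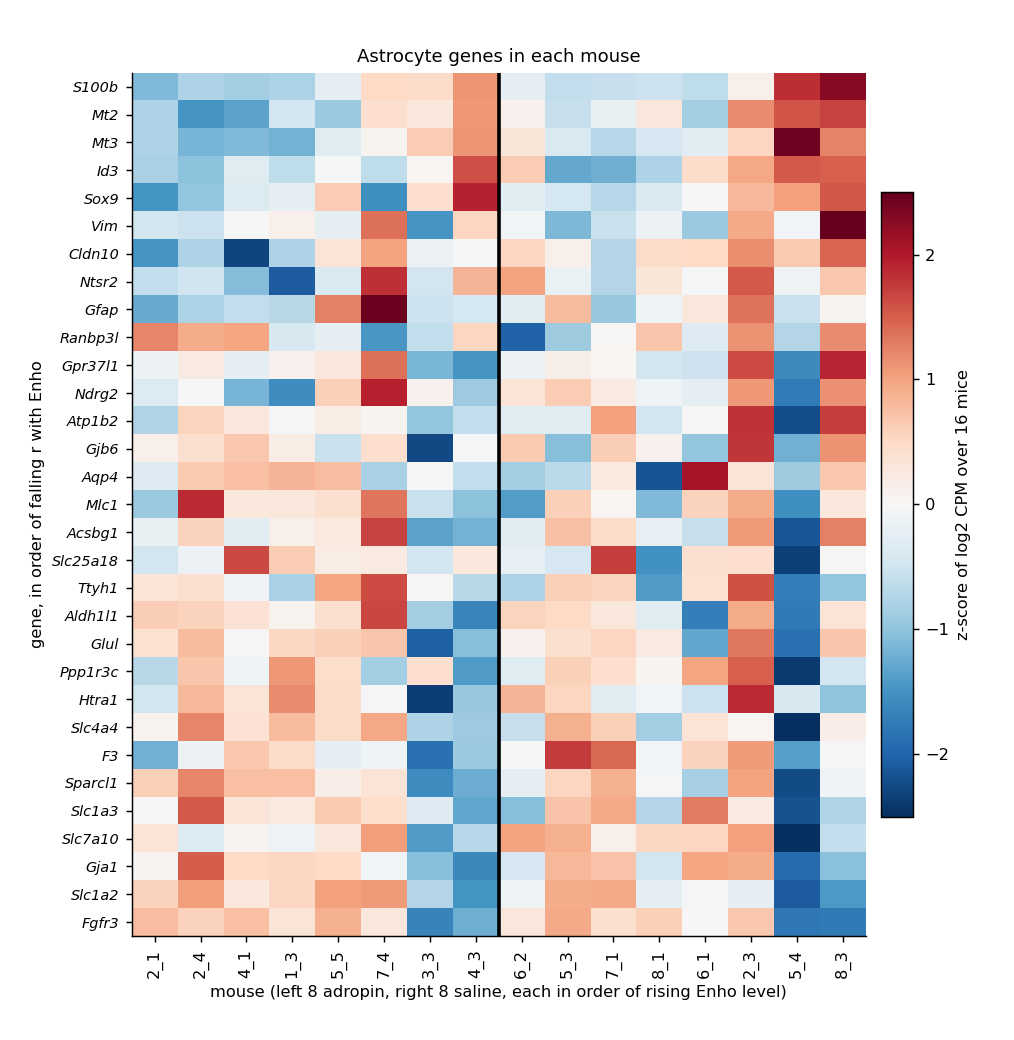
Each cell gives the z-score of a gene's log2 CPM over 16 mice, with genes in order of falling r with Enho and the mice in order of rising Enho within adropin (left of the line) and saline (right). The top rows redden and the bottom rows turn blue toward the right on either side of the line, most in saline mice 5_4 and 8_3 and adropin mice 3_3 and 4_3; colors saturate at ±2.5.

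The members that followed Enho differed in length. Enho itself is short, at 1.269 kb of exon against a median of 4.325 kb over all genes. The median exonic length was 1.79 kb for the 7 members that rose and 10.3 kb for the 3 that fell, against 3.32 kb for all members, and over all genes it was 2.37 kb for those that rose and 7.19 kb for those that fell. Across the 31 members, exonic length and r with Enho had a Spearman rho of −0.478, and across 14941 genes with a length of −0.516; these are correlations across genes, which are not independent replicates. GC content was related less (rho 0.238 over members and 0.0607 over all genes). Mt2, at 0.588 kb the shortest member, and Slc1a2, at 13.1 kb the longest, were on opposite sides.

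**Figure D5:**
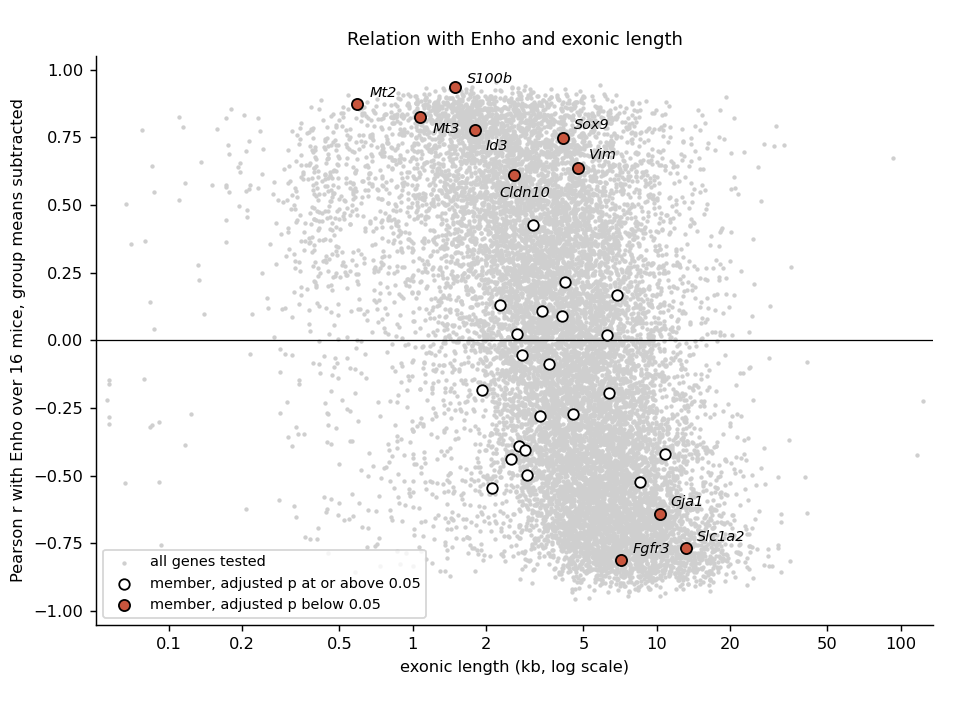
The x axis gives the exonic length of each gene in kb on a log scale and the y axis its Pearson r with Enho over 16 mice, group means subtracted (gray, all genes tested; open circles, astrocyte genes; filled circles, astrocyte genes with an adjusted permutation p below 0.05). The 7 filled genes above 0 lie at shorter lengths, 4.74 kb or less, than the 3 filled genes below 0, at 7.16 kb or more.

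Measures of the libraries moved with the same genes. The mitochondrial share of counts had an r of 0.863 with Enho, 0.919 with S100b and −0.880 with Fgfr3, and the share from ribosomal protein genes had an r of 0.870 with Enho, 0.928 with Mt3 and −0.947 with Slc1a2, all on log scales over 16 mice with group means subtracted. These shares ranged from 4.02% to 9.54% and from 1.18% to 1.96%. The first principal component of all genes, with 33.9% of their variance, had an r of 0.804 with Enho and −0.541 with the astrocyte score. The share of counts from Gm42418, a transcript that overlaps ribosomal RNA, had an r of −0.452 with Enho, and the log2 of the total count −0.109. After the first component was subtracted, 1 member rose with Enho (Acsbg1, r = 0.879, adjusted permutation p = 0.0415) and none fell, where 22 and 25 of all genes did. S100b then had r = 0.806 (adjusted permutation p = 0.0554). The part of RNA quality or tissue composition in these relations was not tested. Neither share differed between adropin and saline beyond the spread of mice (two-sided exact permutation p = 0.209 for the mitochondrial and 0.258 for the ribosomal protein share).

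The score itself tracked genes outside the list. Among the 10 non-members with the highest r with the score were Fgf1 (0.913), Selenop (0.913), Suox (0.906), Plekho2 (0.877), Prkd3 (0.870), Nfatc3 (0.867), Elovl5 (0.861), Jam2 (0.860) and Pros1 (0.858), over 16 mice with group means subtracted. Among them Fgf1 encodes a fibroblast growth factor, Selenop a selenium carrier and Elovl5 a fatty acid elongase. The lowest were Dpf1 (−0.870), Cyp46a1, the cholesterol hydroxylase of neurons (−0.859), Ndufaf7 (−0.853), Fam53a (−0.851) and Wdr66 (−0.842). None of the genes named here differed between adropin and saline at an unadjusted p below 0.05 by edgeR, with log2 fold changes from −0.09 to 0.06.

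Markers of other cell types moved with the score to different degrees. Their scores had an r with it of 0.640 for endothelium (5 genes), 0.645 for thalamus (5), 0.559 for pericytes (3), 0.490 for oligodendrocytes (8), 0.284 for neurons (9) and 0.171 for microglia (10). Summed oligodendrocyte markers ranged from 3027 to 8435 CPM in adropin and from 2890 to 8340 CPM in saline mice, a wider spread than that of the summed astrocyte members, from 8225 to 10756 CPM and from 7656 to 10413 CPM. Between the groups, 1 of 10 microglial markers, the fractalkine receptor Cx3cr1, was higher in adropin (log2 fold change 0.18, edgeR adjusted p = 0.874), and all 5 measurable choroid plexus markers were lower, at an edgeR p below 0.05 with an adjusted p of 0.874 each (their sum 11.1 to 73.4 CPM in adropin and 12.6 to 2460 CPM in saline, where Folr1, Kcne2 and Aqp1 were below the filter). The log2 fold changes were −4.07 for Ttr, −1.89 for Clic6, −1.31 for Sostdc1, −1.21 for Prlr and −1.11 for Kl. Without mouse 8_3 they were −1.34, −0.67, −0.33, −0.73 and −0.61, and 2 of them (Prlr and Kl) had an edgeR p below 0.05, with an adjusted p of 0.994. Of 5 cortical markers Cux2 and Rorb were higher (0.31 and 0.35, edgeR adjusted p = 0.874 each). Of 5 thalamic markers Prkcd, a protein kinase C, was lower (−0.28, and −0.18 without mouse 8_3). Without that mouse Cx3cr1 (0.15), Cux2 (0.29), Prkcd and the thalamic marker Rora (0.23) had an unadjusted p below 0.05 and Rorb (0.32) did not, with an edgeR adjusted p of 0.994 each. Of the cerebellar markers Car8 was lower (−1.40), and higher by 0.20 on the log2 scale without mouse 8_3. The edgeR adjusted p of Prkcd and Car8 was 0.874 with all mice and 0.994 without mouse 8_3. The part of dissection in the astrocyte values was not tested.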

How the data were processed

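Brain tissue RNA of 16 mice, 8 adropin and 8 saline, was poly-A selected and sequenced as paired 150-base reads. Per the study's methods and the submitters' processing notes, STAR was used by the authors for alignment to GRCm38 (Ensembl release 76), and they counted unambiguous reads per gene with featureCounts; the strand setting is not given in the sources used here. The authors deposited raw counts per gene and CPM values, in which every library is scaled to 1 common total. The counts were used for every main result and the deposited CPM for 2 alternatives. Of 40757 rows, 276 repeats of a gene under several identifiers and 355 ribosomal RNA genes were left out, and genes above 1 CPM in at least 7 mice were kept (14949 genes). Groups came from the treatment labels. The 8 mice of a group are taken as separate animals; in all 56 pairs of the same group, counts differed beyond what sampling allows (a chi-square of at least 8.52 times its degrees of freedom).

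Adropin and saline were compared with the edgeR 4.0.16 quasi-likelihood test on counts normalized by the trimmed mean of M-values (TMM), with Benjamini-Hochberg adjustment over all genes tested; limma 3.58.1 and DESeq2 1.42.0 served as alternatives. CPM in the text are TMM-normalized, and log2 CPM carry a prior count of 2. Total counts per mouse ranged from 35026503 to 70314050, with medians of 41190462 in adropin and 41497897.5 in saline. Relations with Enho are Pearson and Spearman correlations of log2 CPM over 16 mice, group means subtracted, with a two-sided p from 100000 permutations of Enho within groups, adjusted over 14948 genes. Single values were compared by exact permutation over 12870 divisions of the mice. Exonic length is the union of exons in GENCODE M21. Promoter windows are from RefSeq, GRCm38.p6. Scripts were tested on simulated data.

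The members and all lists were chosen with earlier results of these data known. The rule for named genes took all 31 members, Enho, the genes of each other list with an unadjusted p below 0.05 or, where there were none, the 2 with the smallest p (given here as counts only), and the 10 highest and 5 lowest non-members by r with the score, of which 1 is not reported here. The labels number each mouse by a pair of digits whose meaning is not stated, and either digit was tried as a block. The other lists were also fitted without mouse 8_3, chosen after seeing the data. The alternatives are given with their effect in the closing section. Proteins were not used here.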

Additional observations from a re-analysis of the deposited data

Results flagged for a closer look

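Within each group of 8 mice, the highest and lowest values of the 31 members, Enho and the score were compared with the nearest other value by Dixon's ratio at the 95% level. Of 66 such groups, 3 held a mouse that stood apart, where chance gives about 3.3. Gjb6 was low in adropin mouse 3_3 (log2 CPM 5.04, the next adropin mouse 5.36). Slc7a10 was low in saline mouse 5_4 (log2 CPM 3.51, the next saline mouse 3.92), which also had the lowest astrocyte score. Id3 was high in adropin mouse 4_3 (log2 CPM 5.30, the next adropin mouse 4.99).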

How the results depend on the processing

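No member passed the fold and p cut-off in any of the 9 alternative fits or the 16 fits without 1 mouse, and the smallest edgeR, limma or DESeq2 adjusted p of a member in any of them was 0.515. The number of members with a lower fitted level in adropin was 14 with the first label digit as a block and 14 to 22 without 1 mouse. Members lower at an unadjusted p below 0.05 numbered 2 with library size only, 0 with the first label digit as a block and 2 with the second as a block, and 0 to 3 without 1 mouse, where 599, 327, 420 and 389 to 1433 of all genes had such a p in either direction; the median log2 fold change of all genes moved to −0.02 at most with library size only. Of 496 fold changes without 1 mouse, 29 changed sign, in 11 genes, and of 279 under the other alternatives, 15, in 11 genes. None of these was past an unadjusted p of 0.05 in either fit. The score difference was −0.276 to 0.0285 without 1 mouse, −0.231 with library size only and −0.181 with the second label digit as a block, against −0.103.

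The score's r with Enho was −0.173 to 0.208 without 1 mouse and 0.856 with the first principal component of all genes also subtracted. Members that rose with Enho numbered 5 to 7 and those that fell 2 to 4 without 1 mouse (1464 to 2392 and 1471 to 2822 of all genes). By Spearman correlation 6 rose and 0 fell (1763 and 1398 of all genes). With the first component subtracted, 1 rose and 0 fell, while 22 and 25 of all genes did; r turned to 0.0475 for Slc1a2 and 0.306 for Gja1, neither past the test, and to 0.879 for Acsbg1. With mice 5_4 and 8_3 both left out, 4 rose and 0 fell (710 and 564 of all genes). These 2 settings, and subtraction of the second label digit before relating genes to Enho, were chosen after seeing the data, and 14 mice allow fewer calls. Why the first component changes these relations was not tested. Library size, DESeq2 size factors, a prior count of 0.5 and unsubtracted group means each gave 7 and 3 (2226 to 2562 and 2570 to 3009 of all genes), and subtraction of the second label digit 5 and 4 (2413 and 3298). With 8 mice a group, the 95% intervals of 24 members exclude changes of 1.25-fold or more, and that of S100b does not exclude 1.5-fold.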
